A study of Gallus gallus with 6 samples.

Results

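The genes described here are named for proteins of the mitochondrial ribosome or encode the structural RNAs of mitochondrial translation. They were chosen by name only. Symbols beginning with MRPL or MRPS and a digit gave nuclear genes named for ribosomal proteins. Names beginning with EYY68_mg gave genes on the mitochondrial genome. Of 24433 genes in the table, 98 met the rule, and all 98 had a mean of at least 1 FPKM (fragments scaled to gene length and library total), the level required for testing. The 74 nuclear members comprised 46 MRPL and 28 MRPS genes. The 24 mitochondrial members were 22 tRNA genes and the 12S and 16S rRNA genes. The 13 protein-coding genes of the mitochondrial genome were not analysed here.

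Polyadenylated RNA had been sequenced from chicken primary myoblasts, the precursors of muscle fibres, taken from leg muscle. In 3 libraries the cells overexpressed ANKRD9, an ankyrin repeat protein of Cullin-RING ubiquitin ligases, and 3 control libraries came from the same kind of cells with pcDNA3.1, an expression plasmid. The labels gave no dose, time after transfection or age of the birds. They did not say that the replicates were separate cultures. P-values therefore reflect how far these samples varied among themselves, which may be technical variation. They also reflect the spread of other genes, because limma, the test used, draws each gene's spread toward that of genes of similar level.

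The mitochondrial ribosome translates the few proteins that the mitochondrial genome encodes, all of them subunits of the respiratory chain and of ATP synthase. Its proteins are encoded in the nucleus, made in the cytosol and imported, while its large and small rRNA and the tRNAs it reads with are transcribed inside the organelle. Both strands of vertebrate mitochondrial DNA are copied into long transcripts, in which tRNAs lie between most of the protein and rRNA genes, and excision of the tRNAs releases the others. Muscle cells depend on this system because differentiation into fibres is accompanied by growth of the respiratory chain.

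The targeted gene followed the labels. ANKRD9 stood at 90.5, 104 and 101 FPKM in ANKRD9 replicates 1, 2 and 3 and at 9.46, 8.16 and 10.1 FPKM in the pcDNA3.1 replicates, a ratio of 10.7 between the means. The libraries held 16158627 to 26310089 reads, as recovered from the steps of the FPKM values. The myoblast genes MYOD1, MYF5, MYOG, DES, CDH15 and PAX7 were present in every library, with summed levels of 929 to 1034 FPKM in ANKRD9 and 913 to 964 FPKM in pcDNA3.1 libraries. Of all 11685 genes tested, 16.3% were higher and 19.8% lower with ANKRD9 at a limma adjusted p under 0.05, and the median log2 fold change was -0.01.

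The nuclear and the mitochondrial members are described apart. Of the 24 mitochondrial genes, 12 were higher with ANKRD9 and 0 lower, and their median log2 fold change was 0.58. Of the 74 nuclear genes, 2 were higher and 8 lower, and their median log2 fold change was -0.03. The difference between these medians is a description, since genes are not replicates.

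Together, the mitochondrial rRNA and tRNA genes held 0.549%, 0.483% and 0.438% of all reads in ANKRD9 replicates 1, 2 and 3, and 0.316%, 0.335% and 0.374% in pcDNA3.1 replicates 1, 2 and 3. Every ANKRD9 library lay above every pcDNA3.1 library. The means were 0.490% ± 0.0561 and 0.342% ± 0.0294 (SD, n = 3 each), a ratio of 1.43. Counting error was far smaller than the spread between replicates, with 95% Wilson intervals reaching at most 0.00338 percentage points to either side. These intervals cover counting error only.

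The rRNA and tRNA portions moved by similar ratios. The rRNA share of reads was 0.238% ± 0.0234 in ANKRD9 and 0.162% ± 0.0182 in pcDNA3.1 libraries (SD, n = 3 each), and the tRNA share was 0.252% ± 0.0326 and 0.179% ± 0.0128. For each rRNA read there were 1.09, 1.06 and 1.03 tRNA reads with ANKRD9 and 1.10, 1.19 and 1.04 with pcDNA3.1, and the groups overlapped. The nuclear members held 0.335%, 0.327% and 0.313% of reads with ANKRD9 and 0.306%, 0.348% and 0.334% with pcDNA3.1, again with overlap, and with means of 0.325% ± 0.0106 and 0.329% ± 0.0215 (SD, n = 3 each).

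**Figure D1:**
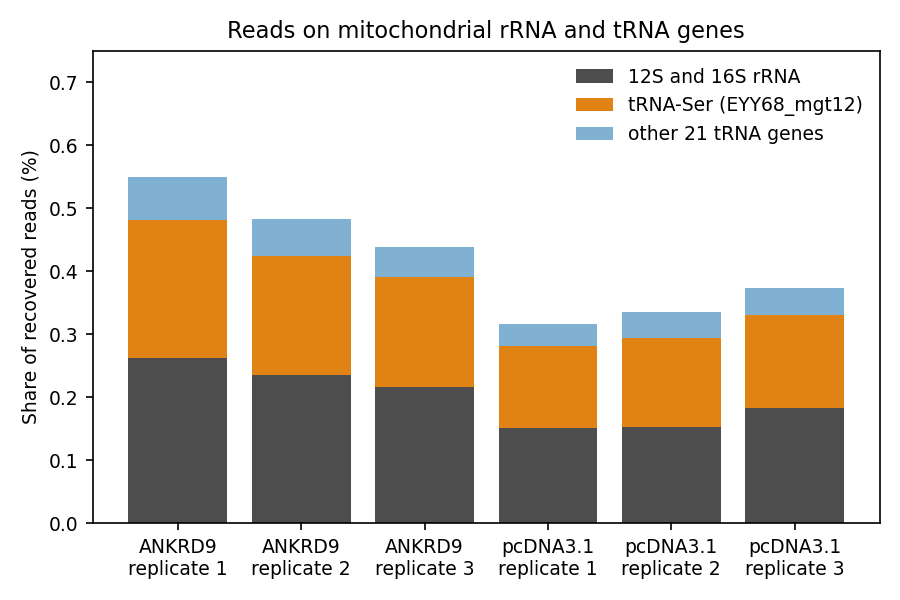
Share of each library's recovered reads, in percent, on the mitochondrial rRNA and tRNA genes, as 1 stacked bar per library with the 12S and 16S rRNA, the serine tRNA beside COX1 and the other 21 tRNA genes as parts. The ANKRD9 bars reach 0.438% to 0.549% and the pcDNA3.1 bars 0.316% to 0.374%.

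Libraries of polyadenylated RNA count only what entered such a library, and a mature tRNA could not be told apart here from a longer transcript that contains it. In bulk samples, fewer cells of a type and less RNA per cell cannot be told apart either. Other markers also moved with the groups. The summed fibroblast markers were 1290 to 1383 FPKM in ANKRD9 and 1677 to 1708 FPKM in pcDNA3.1 libraries, with 0 of 6 genes higher and 5 lower, and the summed leukocyte markers were 18.4 to 21.9 and 13 to 15.8 FPKM, with 2 of 4 tested genes higher. The myoblast list had 2 of 6 genes higher (DES and MYF5) and 2 lower (MYOD1 and PAX7), and the adipocyte list summed to 11.6 to 12.1 and 7.52 to 7.66 FPKM. The adipocyte difference lay in CIDEC, with means of 9.48 FPKM with ANKRD9 and 4.81 FPKM with pcDNA3.1. ADIPOQ and FABP4 had lower means with ANKRD9, and PLIN1 stood at 0.372 and 0.354 FPKM. Endothelial markers summed to 6.37 to 7.62 FPKM over all libraries, erythroid markers to 0.0990 to 0.383 FPKM, and Schwann and neural markers to 0.683 to 0.987 FPKM. The endothelial sum hides opposite changes: of 2 genes tested, PECAM1 was higher and TEK lower. KDR was higher and CDH5 lower without overlap, both below the level required for testing. The part of these markers in the results was not tested.

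Both rRNAs of the mitochondrial ribosome rose. The 12S rRNA (EYY68_mgr02, mitochondrial genome of GRCg6a, bases 1301 to 2276, plus strand) is the RNA of the small subunit, which decodes the message. Its levels were 1195, 1134 and 1062 FPKM in ANKRD9 replicates 1, 2 and 3 and 674, 748 and 845 FPKM in the pcDNA3.1 replicates. The lowest ANKRD9 library lay well above the highest pcDNA3.1 library. The means were 1130 ± 66.7 and 756 ± 85.4 FPKM (SD, n = 3 each), 1.5 times as high with ANKRD9, with a log2 fold change of 0.58 ± 0.09 (SE) and a limma adjusted p of 0.00242. Between 13136 and 31132 reads per library lay behind these values.

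The 16S rRNA (EYY68_mgr01, bases 2350 to 3971, plus strand) is the RNA of the large subunit and forms its peptidyl transferase centre. It was measured at 877, 749 and 681 FPKM with ANKRD9 and at 528, 506 and 624 FPKM with pcDNA3.1. The groups did not overlap, although ANKRD9 replicate 3 and pcDNA3.1 replicate 3 lay close together. The mean rose 1.39 times, from 553 ± 63.1 to 769 ± 99.9 FPKM (SD, n = 3 each; log2 fold change 0.47 ± 0.11, SE; limma adjusted p = 0.0136). The level of 16S relative to 12S rRNA, both per length, was 0.734, 0.660 and 0.641 in ANKRD9 and 0.782, 0.677 and 0.739 in pcDNA3.1 libraries. These ranges overlapped.

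Among the 22 tRNA genes, 10 rose, 0 fell and 12 did not pass the test. For 12 of them, and for both rRNA genes, the values of the groups did not overlap, with ANKRD9 higher in each case. Over all genes tested, 23.7% were higher in this way. The log2 fold change was above 0 for 23 of the 24 mitochondrial genes, the exception being the tRNA for glutamine. The tRNAs for valine, among the 23, and glutamine had at most 4 and 7 reads in any library. These are too few to give a direction for either tRNA. An unadjusted p under 0.05 was reached by 18 of the 24, all higher, and by 21.7% of all genes tested as higher.

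**Figure D2:**
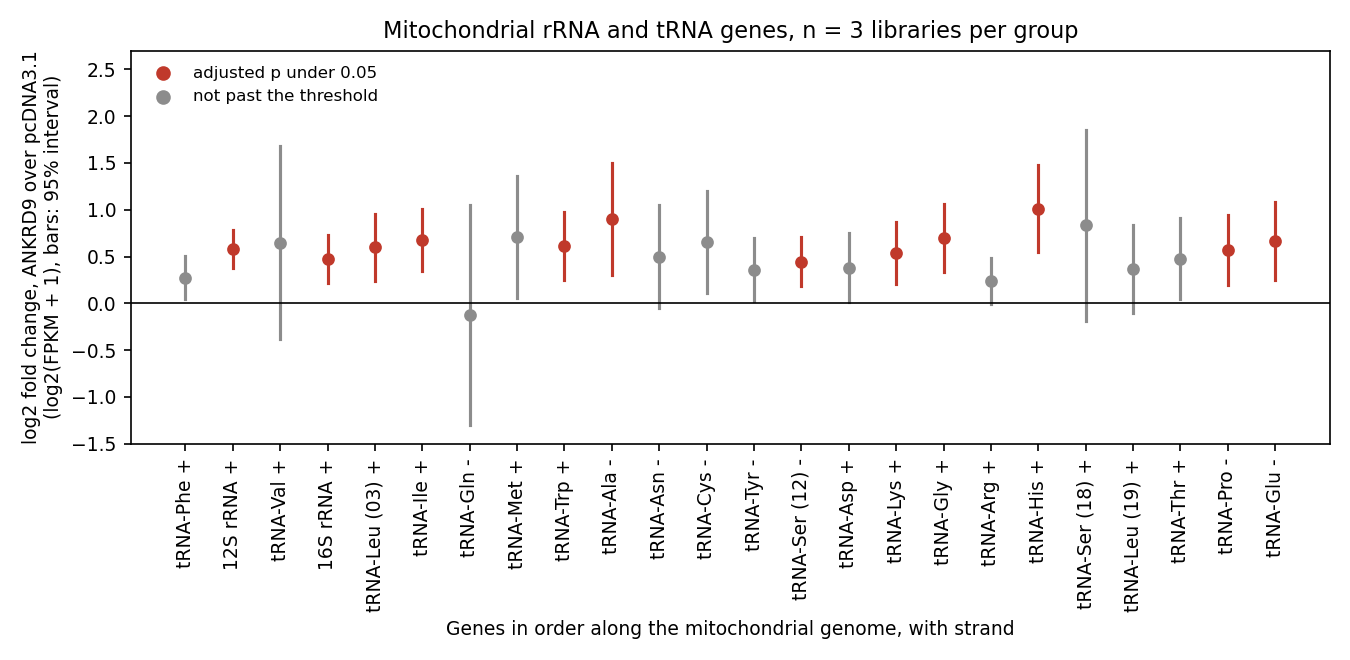
Log2 fold change on the log2(FPKM + 1) scale, ANKRD9 against pcDNA3.1, of the 24 mitochondrial genes in genome order, with 95% intervals from limma. Red marks genes with an adjusted p under 0.05 and grey the others. All but the tRNA for glutamine lie above 0, and the widest intervals belong to the tRNAs for valine, glutamine and the serine tRNA beside that for histidine, which have the fewest reads.

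One tRNA held most of the tRNA signal. The tRNA for serine that is encoded next to COX1 (EYY68_mgt12, bases 8192 to 8266, minus strand) had 28625, 24968 and 22997 FPKM with ANKRD9 and 17389, 19042 and 19663 FPKM with pcDNA3.1. Every ANKRD9 value was above every control value, and the overall mean of 22114 FPKM was the highest of the 11685 genes tested. The group means of 25530 ± 2856 and 18698 ± 1175 FPKM (SD, n = 3 each) differed 1.37-fold, with a log2 fold change of 0.45 ± 0.11 (SE) and a limma adjusted p of 0.0188. The call was lost without ANKRD9 replicate 1 (adjusted p = 0.0799) and without replicate 2 (0.0797).

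Reads on this tRNA, 26029 to 57307 per library, made up 39.2% to 39.8% of the mitochondrial member reads with ANKRD9 and 39.4% to 42.1% with pcDNA3.1. In the RefSeq annotation of assembly GRCg7b, whose 24 entries have the same order and lengths as those of the table, the gene lies on the opposite strand from COX1 and overlaps the end of COX1. The library kit as named does not mark strand, so reads from the tRNA and from transcripts of the opposite strand cannot be told apart. Without this gene, there were 0.244 ± 0.0218 tRNA reads per rRNA read with ANKRD9 and 0.245 ± 0.0181 with pcDNA3.1 (SD, n = 3 each).

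**Figure D3:**
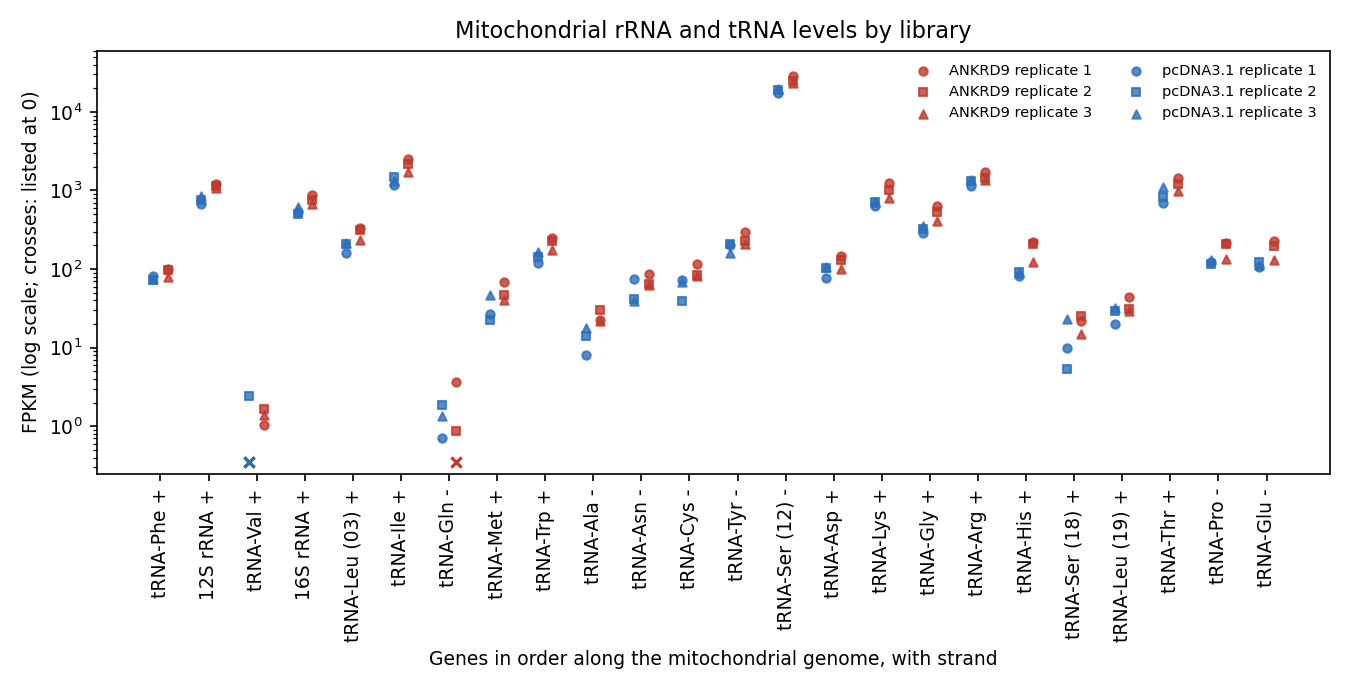
FPKM of the 24 mitochondrial genes in each library, on a log axis and in genome order, with 1 point per library and crosses for values listed at 0. The serine tRNA beside COX1 stands above all others, both rRNAs lie between 506 and 1195 FPKM, and the tRNAs for valine and glutamine lie lowest.

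The ratio between group means was largest for the tRNA for histidine (EYY68_mgt17, bases 12873 to 12941, plus strand, after ND4), which measured 218, 208 and 122 FPKM with ANKRD9 and 81.3, 91.9 and 89.3 FPKM with pcDNA3.1. The pcDNA3.1 libraries were close together, and ANKRD9 replicate 3 was far below replicates 1 and 2 but still above all of them. The means were 183 ± 52.8 and 87.5 ± 5.51 FPKM (SD, n = 3 each), a ratio of 2.09, with a log2 fold change of 1.01 ± 0.20 (SE) and a limma adjusted p of 0.00757. The tRNA for isoleucine (EYY68_mgt04, bases 5030 to 5101, plus strand, after ND1) was the most abundant after that for serine. Its levels were 2504, 2192 and 1730 FPKM with ANKRD9 and 1173, 1486 and 1334 FPKM with pcDNA3.1, without overlap, and its mean was 1.61 times as high with ANKRD9 (log2 fold change 0.68 ± 0.14, SE; limma adjusted p = 0.00929).

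The tRNA for glycine (EYY68_mgt15, bases 10716 to 10783, plus strand, between COX3 and ND3) showed 643, 538 and 406 FPKM with ANKRD9 and 290, 327 and 350 FPKM with pcDNA3.1. Its groups did not overlap, and the mean was 1.64 times as high (log2 fold change 0.69 ± 0.16, SE; limma adjusted p = 0.0122). The calls for both rRNAs and for the tRNAs for histidine, isoleucine and glycine were kept when any single library was left out, with adjusted p values up to 0.0442.

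Another 6 tRNAs rose with less certainty. Ratios of the means were 1.47 for lysine (EYY68_mgt14), 1.52 for the leucine tRNA after 16S rRNA (EYY68_mgt03), 1.54 for tryptophan (EYY68_mgt07), 1.52 for proline (EYY68_mgt21) and 1.63 for glutamate (EYY68_mgt22), with limma adjusted p values of 0.0192 to 0.0284. The sixth, alanine (EYY68_mgt08), was outside the rule for naming genes and was chosen after its values were seen. It rested on 11 to 41 reads per library and had a ratio of 1.86 (limma adjusted p = 0.0301). None of these 6 tRNAs had overlapping groups, which adds no support because they were called from the same values.

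Each of these 6 calls was lost without at least 1 library. Leucine and tryptophan were lost without ANKRD9 replicate 1 or 2 (limma adjusted p of 0.0619 to 0.0687). Lysine was lost without ANKRD9 replicate 2 or pcDNA3.1 replicate 1 or 3 (0.0514 to 0.0667), and glutamate without ANKRD9 replicate 1 or 2 or pcDNA3.1 replicate 1 or 3 (0.0608 to 0.0790). Alanine was lost without ANKRD9 replicate 1 or 2 or pcDNA3.1 replicate 2 (0.0528 to 0.0973), and proline was kept only without ANKRD9 replicate 3 (0.0586 to 0.0935 otherwise). The count of rises among the mitochondrial genes was 6 without ANKRD9 replicate 1 and 5 without ANKRD9 replicate 2, against 12 with all libraries. Rises over all genes tested also became fewer in these fits. They were 1405 of 11673 without ANKRD9 replicate 1 and 1255 of 11675 without ANKRD9 replicate 2, against 1900 of 11685 with all libraries. The mitochondrial count fell by the larger share in both fits.

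Among the abundant tRNAs, those for arginine, threonine and tyrosine did not pass. Arginine (EYY68_mgt16, bases 11137 to 11204, plus strand) measured 1728, 1457 and 1350 FPKM with ANKRD9 and 1142, 1316 and 1378 FPKM with pcDNA3.1, which overlapped (log2 fold change 0.24 ± 0.11, SE; limma adjusted p = 0.118). That for threonine (EYY68_mgt20, bases 16048 to 16116, plus strand) also overlapped, at 1433, 1219 and 994 FPKM against 692, 834 and 1111 FPKM (log2 fold change 0.48 ± 0.19, SE; limma adjusted p = 0.0832). The tyrosine tRNA (EYY68_mgt11, bases 6578 to 6648, minus strand) did not overlap, at 299, 228 and 209 FPKM with ANKRD9 and 200, 209 and 162 FPKM with pcDNA3.1, but missed the threshold (limma adjusted p = 0.0893).

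At the low end, the tRNA for valine (EYY68_mgt02, bases 2277 to 2349), which lies between the rRNA genes and in human mitochondria also serves as a structural RNA of the large subunit, had 2 reads in every ANKRD9 library and 0, 4 and 0 reads in the pcDNA3.1 libraries. A count of 0 allows up to 3 reads, or 2.06 FPKM in pcDNA3.1 replicate 1 and 1.95 FPKM in replicate 3. The neighbouring 12S and 16S genes carried at least 13136 reads each in the same libraries. The tRNA for glutamine (EYY68_mgt05, bases 5107 to 5177, minus strand) had 7, 1 and 0 reads with ANKRD9 and 1, 3 and 2 reads with pcDNA3.1. A difference in either tRNA was not detectable at this depth, and the 95% interval of the log2 fold change for glutamine ran from -1.30 to 1.05.

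Values at the tRNA genes differed with their place in the genome. Reads of a mature tRNA and of a longer transcript that contains it cannot be told apart here. These values may therefore not be levels of mature tRNA. Place was taken along the plus-strand coordinates for genes of both strands, so it is not the order within a transcript. The 9 tRNAs whose genes directly follow a protein-coding gene in genome order had a median of 857 FPKM, the 6 that only precede one had 133 FPKM, and the 7 beside none had 19.0 FPKM. Of these, 7, 2 and 1 rose with ANKRD9, and the median log2 fold changes were 0.61, 0.48 and 0.65. The last of these medians is the value of the tRNA for valine, which had at most 4 reads per library. The count of rises fell with the level, and this median cannot show whether the size of the change did. By strand, 6 of 14 plus-strand and 4 of 8 minus-strand tRNAs rose, with median log2 fold changes of 0.61 and 0.54.

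ANKRD9 replicate 1 and pcDNA3.1 replicate 1 stood at the ends of the mitochondrial values. Of the 24 genes, 21 were highest in ANKRD9 replicate 1, which was also the deepest library, and 15 were lowest in pcDNA3.1 replicate 1. Over all genes tested, these libraries were highest for 17.4% and lowest for 21.2%. The ratio of the mitochondrial shares of reads stayed between 1.35 and 1.51 when each library was left out in turn. The median coefficient of variation of the tRNA genes between replicates was 19.5% with ANKRD9 and 16.2% with pcDNA3.1. For all genes tested it was 4.90% and 5.89%. Because limma draws each gene's spread toward that of other genes, the intervals and p-values of the tRNA genes rest partly on genes that varied less.

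The nuclear genes named for mitoribosomal proteins changed little. Of the 74, 13.5% passed the test in either direction, against 36.0% of all genes tested, and 64 did not pass. Without pcDNA3.1 replicate 1 these shares lay closer, at 29.7% and 33.5%. An unadjusted p under 0.05 was reached by 18 lower and 4 higher members of the 74. Of all 11685 genes tested, 2889 (24.7%) reached it as lower and 2539 (21.7%) as higher. At this threshold the share of lower members was close to that of all genes, and the share of higher members was smaller. The middle 50% of log2 fold changes lay between -0.15 and 0.03, and the median size of the change was 0.07, against 0.14 for all genes. For 73 of the 74, the 95% interval of the difference lay within 1.5-fold in either direction, the exception being MRPL49. The same held for 10316 of all 11685 genes tested.

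Group values did not overlap for 17 nuclear members, 3 higher and 14 lower. That was 23.0% of them, and 50.6% of all genes tested. Mean levels ran from 5.16 FPKM for MRPS6 to 106 FPKM for MRPL12, with a median of 37.1 FPKM and 248.5 to 1987 reads per gene and library on average.

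**Figure D4:**
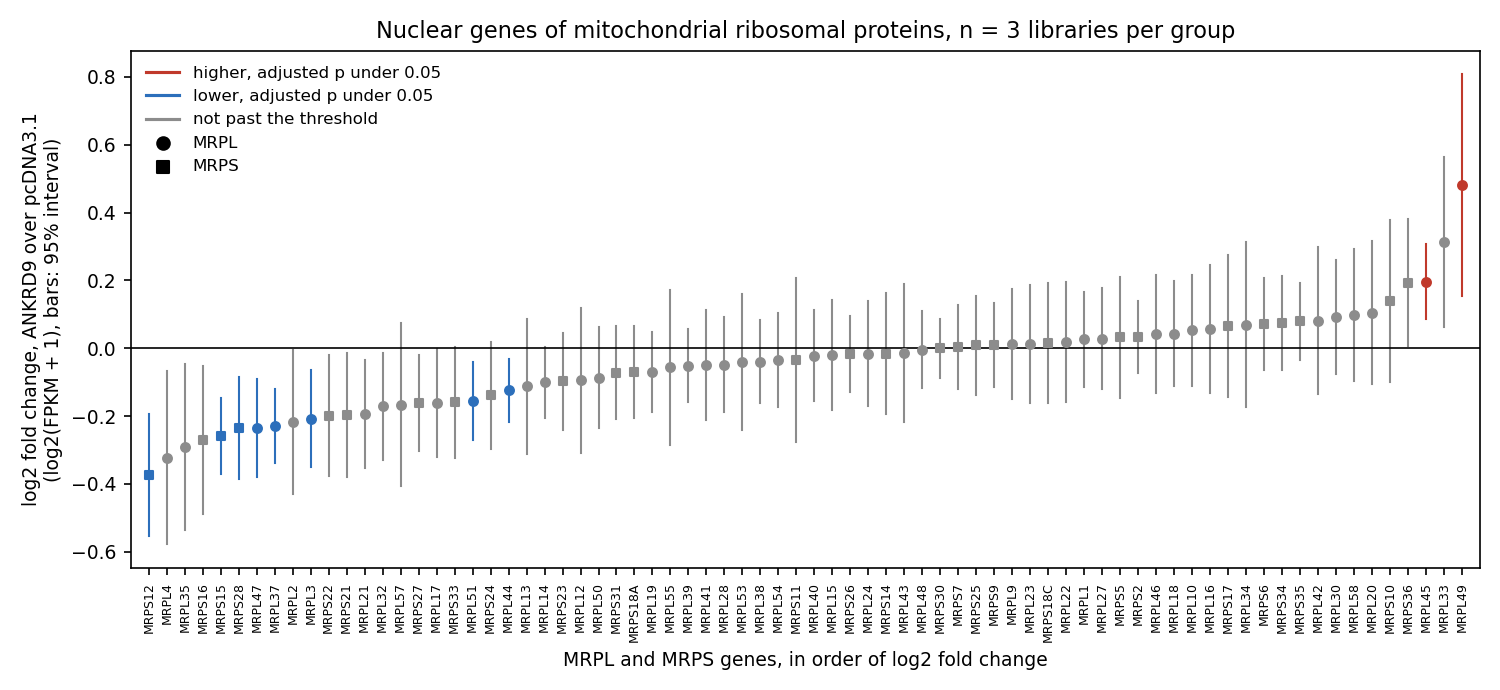
Log2 fold change on the log2(FPKM + 1) scale, ANKRD9 against pcDNA3.1, of the 74 nuclear genes, with 95% intervals from limma, in order of the change, with circles for MRPL and squares for MRPS genes. Red marks the 2 higher and blue the 8 lower genes with an adjusted p under 0.05, and the changes run from -0.37 to 0.48.

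Among the 28 MRPS genes, most of which encode proteins of the small subunit that binds the message, 3 fell and 0 rose. MRPS12, the counterpart of a bacterial protein at the decoding centre, had 32.5, 30.8 and 30.4 FPKM with ANKRD9 and 38.4, 38.0 and 46.3 FPKM with pcDNA3.1. The groups did not overlap, and pcDNA3.1 replicate 3 stood above the rest. The means of 31.2 ± 1.16 and 40.9 ± 4.66 FPKM (SD, n = 3 each) gave a level 1.31 times lower with ANKRD9 (log2 fold change -0.37 ± 0.08, SE; limma adjusted p = 0.00867). The gene overlaps PAK4 on the opposite strand by 104 bases, where reads of the pair cannot be told apart without strand.

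MRPS15 (chromosome 23, 4166517 to 4172897), the counterpart of a bacterial protein that binds the small rRNA, had 53.0, 48.4 and 49.1 FPKM with ANKRD9 and 58.2, 62.2 and 60.3 FPKM with pcDNA3.1. Its groups were well separated, with means of 50.2 ± 2.46 and 60.2 ± 2.01 FPKM (SD, n = 3 each) and a log2 fold change of -0.26 ± 0.05 (SE; limma adjusted p = 0.00560). MRPS28 (chromosome 2, 120718615 to 120793814), a protein of the small subunit, had 17.6, 18.1 and 17.8 FPKM with ANKRD9 and 19.1, 21.9 and 22.6 FPKM with pcDNA3.1 (log2 fold change -0.24 ± 0.06, SE; limma adjusted p = 0.0260). Its groups did not overlap, but its call was kept only without pcDNA3.1 replicate 1 and lost without any other library (0.0633 to 0.0809). It overlaps TPD52 on the same strand by 84 bases.

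Of 46 MRPL genes, which encode proteins of the large subunit, 5 fell and 2 rose. MRPL37 (chromosome 8, 25514945 to 25520455), a protein particular to mitochondrial ribosomes, had 17.5, 17.8 and 17.9 FPKM with ANKRD9 and 21.7, 21.5 and 19.8 FPKM with pcDNA3.1. The ANKRD9 values were nearly identical and all lower, with means of 17.8 ± 0.193 against 21 ± 1.06 FPKM (SD, n = 3 each) and a log2 fold change of -0.23 ± 0.05 (SE; limma adjusted p = 0.00845). The calls of MRPS12, MRPS15 and MRPL37 were kept when any single library was left out.

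The other 4 falls were smaller or less certain. MRPL3 (chromosome 2, 41825713 to 41854007), whose bacterial counterpart reaches toward the peptidyl transferase centre, had 45.1, 41.9 and 42.7 FPKM with ANKRD9 and 48.9, 54.6 and 46.9 FPKM with pcDNA3.1 (log2 fold change -0.21 ± 0.06, SE; limma adjusted p = 0.0332). MRPL47 (chromosome 9, 17588482 to 17591680), the counterpart of a bacterial protein near the exit of the peptide tunnel, had 24.7, 25 and 21.4 against 27.6, 28.1 and 28.3 FPKM (log2 fold change -0.23 ± 0.06, SE; limma adjusted p = 0.0227). In both, all ANKRD9 values were lower than all control values.

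MRPL44 (chromosome 9, 9611815 to 9614811), which carries a fold related to ribonuclease III, and MRPL51 (chromosome 1, 77585838 to 77587391), a protein with no bacterial counterpart, had log2 fold changes of -0.12 ± 0.04 and -0.16 ± 0.05 (SE), with limma adjusted p values of 0.0439 and 0.0417. MRPL44 measured 64.4, 62.6 and 60.8 FPKM with ANKRD9 and 66.9, 67.9 and 70.3 FPKM with pcDNA3.1, and MRPL51 measured 30.8, 30.1 and 28.6 against 32.0, 35.2 and 32.9 FPKM. Neither gene's groups overlapped. When single libraries were left out, the calls of both were kept only without pcDNA3.1 replicate 1 (limma adjusted p of 0.0570 to 0.134 otherwise). Over all 17 alternative settings, the call was lost in 13 for MRPL44 and in 11 for MRPL51. For both genes these included other scalings of the libraries. MRPL3 was lost without ANKRD9 replicate 2 or 3 or pcDNA3.1 replicate 2 (0.0651 to 0.111), and MRPL47 without pcDNA3.1 replicate 2 or 3 (0.0562 and 0.0662).

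The rises were in MRPL45 and MRPL49, both without bacterial counterparts. MRPL45 (chromosome 27, 6625928 to 6629554), which in mammals tethers the large subunit to the inner membrane, had 47.8, 44.0 and 44.4 FPKM with ANKRD9 and 37.9, 40.6 and 39.9 FPKM with pcDNA3.1. Without overlap, the means of 45.4 ± 2.09 and 39.5 ± 1.43 FPKM (SD, n = 3 each) differed 1.15-fold (log2 fold change 0.20 ± 0.05, SE; limma adjusted p = 0.0165). The call was lost without ANKRD9 replicate 1 (0.0525). The gene overlaps LOC112530348 on the opposite strand by 151 bases.

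MRPL49 had 34.5, 40.3 and 31.1 FPKM with ANKRD9 and 20.8, 30.4 and 24.2 FPKM with pcDNA3.1. ANKRD9 replicate 3 lay just above pcDNA3.1 replicate 2. The means of 35.3 ± 4.66 and 25.2 ± 4.89 FPKM (SD, n = 3 each) gave the largest rise among the nuclear members tested, 1.40-fold (log2 fold change 0.48 ± 0.14, SE; limma adjusted p = 0.0322). Its call was kept only without ANKRD9 replicate 3 or pcDNA3.1 replicate 2 and lost without any other library (0.0712 to 0.102).

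**Figure D5:**
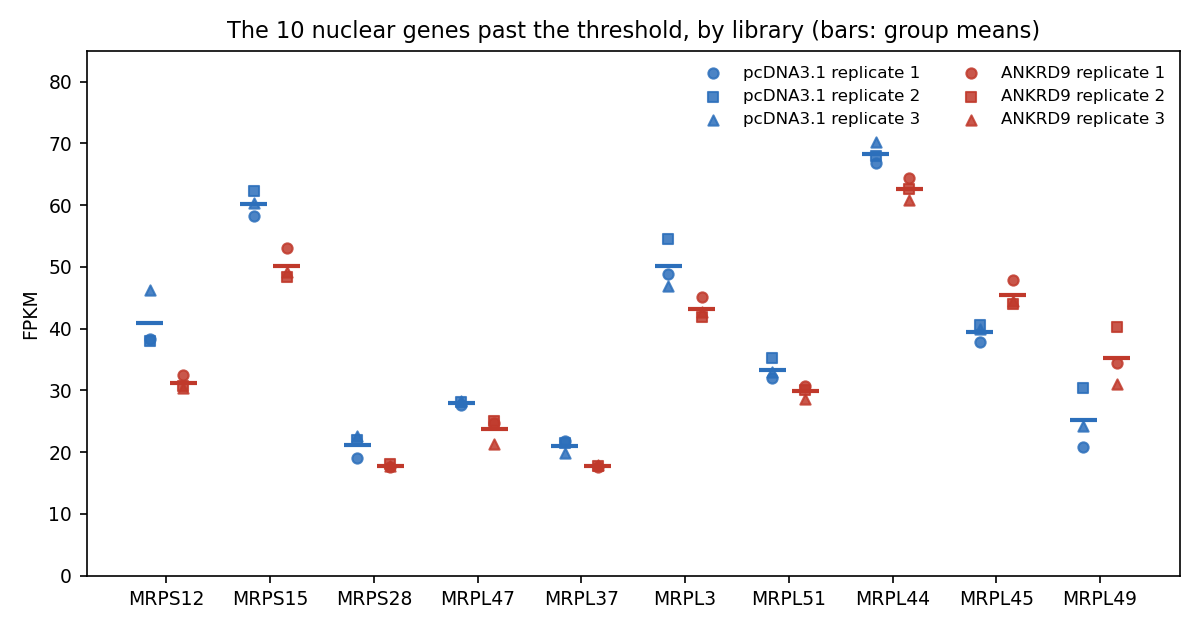
FPKM of the 10 nuclear genes with an adjusted p under 0.05 in each library, with 1 point per library and a line at each group mean. The groups do not overlap for any of the 10, nor for 50.6% of all genes tested. The 10 were called from these same values, so the lack of overlap adds no support. The distance between the groups is small beside the differences in level between genes.

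Several members near the threshold or at the ends of the range did not pass. MRPL12, the most abundant, encodes the stalk protein of the large subunit and had 110, 101 and 97.1 FPKM with ANKRD9 and 94.6, 121 and 115 FPKM with pcDNA3.1, which overlapped (log2 fold change -0.09 ± 0.09, SE; limma adjusted p = 0.454). MRPS6, the lowest by FPKM, had 5.31 ± 0.144 and 5.01 ± 0.308 FPKM (SD, n = 3 each; limma adjusted p = 0.371). It shares 8528 bases with SLC5A3 on the same strand, and its listed length is 11799 bases. Its mean of 1285.8 reads per library was above the median of 854.7 for the nuclear members, so its FPKM does not show that it is the least abundant. Just outside the threshold, and chosen after their values were seen, were MRPL4, with a log2 fold change of -0.32 (limma adjusted p = 0.0544), and MRPL33, with 0.31 (0.0557), which overlaps RBKS on the opposite strand by 11831 bases. In all, 17 nuclear members overlap a gene on the opposite strand.

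By place in the ribosome, the calls were few beside the 36.0% of all genes tested. Of 28 large-subunit proteins with a bacterial counterpart, 0 rose and 2 fell, with a median level of 53.0 FPKM and a median log2 fold change of -0.03. Of 20 large-subunit proteins without one in the bacterial large subunit, 2 rose and 3 fell. Their median level was 34.7 FPKM and their median log2 fold change -0.04. These classes count MRPS30 and MRPS18A, which sit in the large subunit in mammals despite their names. Of the other 26 MRPS genes, grouped here by name only, 0 rose and 3 fell. Their median level was 29.9 FPKM and their median log2 fold change -0.02.

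The balance between MRPL and MRPS genes, summed by name with MRPS30 and MRPS18A counted as MRPS, stayed close in all libraries. The summed FPKM of the MRPL genes over that of the MRPS genes was 2.35, 2.29 and 2.30 with ANKRD9 and 2.20, 2.29 and 2.36 with pcDNA3.1, and the groups overlapped. The pcDNA3.1 libraries differed more among themselves than the ANKRD9 libraries did, with a median coefficient of variation of 8.59% against 4.64% for the nuclear members, where all genes tested had 5.89% and 4.90%. Replicate 1 of pcDNA3.1 was the lowest library for 33 of the 74 and replicate 2 the highest for 39. The number of falls called was 21 without pcDNA3.1 replicate 1, 4 without ANKRD9 replicate 2 or 3 or pcDNA3.1 replicate 2 or 3, and 8 without ANKRD9 replicate 1. The number of rises was between 0 and 3 over these fits. Without pcDNA3.1 replicate 1, 29.7% of the nuclear members were called in either direction, against 33.5% of all genes tested. Falls in that fit were 21 of the 74 members and 2146 of 11673 genes tested, a larger share among the members. In the other fits, 6.76% to 10.8% of the members were called, against 24.3% to 30.9% of all genes tested.

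Genes that serve the same system under other names were also mixed. Over the 7 lists of such genes, 11 of 101 genes tested were higher and 13 lower with ANKRD9, 23.8% in all, against the 36.0% of all genes tested. Of 5 mitoribosomal proteins with other names, 0 rose and 1 fell. It was DAP3, a GTP-binding protein of the small subunit, at 25.7 ± 2.64 FPKM with ANKRD9 and 31.4 ± 1.41 FPKM with pcDNA3.1 (SD, n = 3 each; limma adjusted p = 0.0205). Its call was lost without ANKRD9 replicate 2 or pcDNA3.1 replicate 2 or 3 (0.0598 to 0.0659). AURKAIP1 and PTCD3, also of the small subunit, did not pass, with log2 fold changes of 0.13 and -0.08.

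Of 12 translation factors, 1 rose and 0 fell. It was MTFMT, which formylates the initiator tRNA, with a log2 fold change of 0.18 (limma adjusted p = 0.0458), lost without ANKRD9 replicate 2 or 3 or pcDNA3.1 replicate 1 or 2 (0.101 to 0.150). The elongation factors TSFM and GFM1 did not pass, at log2 fold changes of 0.34 and 0.11. Of 20 genes of mitochondrial aminoacyl-tRNA synthesis, 2 rose and 1 fell. HARS2, which charges the histidine tRNA described above, had 9.01, 9.34 and 8.34 FPKM with ANKRD9 and 6.96, 6.05 and 7.14 FPKM with pcDNA3.1, without overlap. Its mean was 1.32 times as high (log2 fold change 0.36; limma adjusted p = 0.00731), kept without any single library.

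GATB, a subunit of the enzyme that completes the glutamine tRNA, fell by 0.26 on the log2 scale (limma adjusted p = 0.0304) and was lost without ANKRD9 replicate 2 or 3 or pcDNA3.1 replicate 1 or 3 (0.0638 to 0.0864).

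Of 21 genes of mitoribosome assembly and rRNA modification, 2 rose and 4 fell. DHX30, an RNA helicase of mitochondrial RNA granules in human cells, had 23.7 ± 0.516 FPKM with ANKRD9 and 19.2 ± 0.595 FPKM with pcDNA3.1 (SD, n = 3 each; log2 fold change 0.29; limma adjusted p = 0.00202). YBEY, a ribonuclease of small-subunit maturation, was lower, at 1.65 ± 0.254 against 2.86 ± 0.238 FPKM (log2 fold change -0.54; limma adjusted p = 0.00395). Both calls were kept without any single library. ERAL1, a GTPase that binds 12S rRNA in human cells, was higher by a log2 fold change of 0.27 (limma adjusted p = 0.0152) and was lost without ANKRD9 replicate 1 or 2 (0.0536 and 0.0593).

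Of 16 genes of mitochondrial DNA transcription and maintenance, 3 rose and 3 fell. More than 1 entry bears the name DGUOK, a mitochondrial deoxyguanosine kinase, and the entries moved in opposite directions. Gene 770922 on chromosome 13 had 26.8 ± 1.17 FPKM with ANKRD9 and 39.8 ± 2.41 FPKM with pcDNA3.1 (SD, n = 3 each; limma adjusted p = 5.24e-04), and gene 107054975 on chromosome 22 had 16.8 ± 0.946 and 14.2 ± 0.902 FPKM (limma adjusted p = 0.0244). Reads could be split between such same-named copies, so both are uncertain, and the second call was lost without ANKRD9 replicate 2 or 3 or pcDNA3.1 replicate 1 (0.0541 to 0.0886). RNASEH1, which removes RNA from hybrids with DNA, rose by a log2 fold change of 0.16 (limma adjusted p = 0.0147), lost without ANKRD9 replicate 2 (0.0658). TWNK, the replicative helicase, fell by 0.18 on the log2 scale (limma adjusted p = 0.0158), lost without ANKRD9 replicate 2 or pcDNA3.1 replicate 3 (0.0550 and 0.0665).

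Proteins that make the mitochondrial transcripts were chosen for naming after their values were seen. POLRMT, the mitochondrial RNA polymerase, had 13.2, 14.0 and 13.6 FPKM with ANKRD9 and 12.7, 11.2 and 11.8 FPKM with pcDNA3.1, a log2 fold change of 0.19 (limma adjusted p = 0.0353). The groups did not overlap, but the call was kept only without pcDNA3.1 replicate 1 (0.0602 to 0.115 otherwise). TFAM, which packages mitochondrial DNA and starts transcription with the polymerase, had 44.2 ± 1.5 and 46.9 ± 2.26 FPKM (SD, n = 3 each) and did not pass (limma adjusted p = 0.217).

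Of 20 genes of mitochondrial RNA processing and decay, 3 rose and 3 fell. TRIT1, which modifies a base beside the anticodon of certain tRNAs, had 14.1, 14.9 and 12.9 FPKM with ANKRD9 and 9.17, 10.3 and 9.88 FPKM with pcDNA3.1, without overlap (log2 fold change 0.47; limma adjusted p = 0.00192). MTPAP, the mitochondrial poly(A) polymerase, was lower, at 6.34, 6.55 and 6.41 against 7.51, 7.87 and 7.79 FPKM, also without overlap (log2 fold change -0.23; limma adjusted p = 0.00802). Both were kept without any single library. LRPPRC, which stabilises mitochondrial messages in mammals, fell by 0.16 on the log2 scale (limma adjusted p = 0.0182) and was lost without ANKRD9 replicate 1 or pcDNA3.1 replicate 2 (0.0530 to 0.0608).

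Of 7 regulators of mitochondrial biogenesis, 0 rose and 1 fell. GABPA, a transcription factor known in mammals to bind promoters of nuclear genes for mitochondrial proteins, had 18.9, 19.3 and 21.4 FPKM with ANKRD9 and 26.5, 26.9 and 25.2 FPKM with pcDNA3.1. The groups were well separated (log2 fold change -0.39; limma adjusted p = 0.00207), and the call was kept without any single library. NRF1 and PPRC1, factors of the same programme, did not pass, with log2 fold changes of 0.11 and -0.07.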

How the data were processed

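Polyadenylated RNA from 6 samples was sequenced with an NEBNext Ultra RNA kit after RNeasy purification, per the labels' protocols. The build was GRCg6a (galGal6) and CASAVA served as a tool, per the submitters' processing notes. The sources used here name no aligner, counter or strand setting, which are therefore not given. The authors deposited FPKM per gene in one table, per the file headers, with positions and lengths. Columns were matched to samples by name, and 0 were left without a sample.

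FPKM times gene length was a whole multiple of 1 step per library for 100% of values above 0 (tolerance 0.01), which gave recovered reads. The total by which the authors divided differed from the sum of these reads by 1.02% to 1.45% in ANKRD9 and by -1.08% to -0.161% in pcDNA3.1 libraries. Log2(FPKM + 1) was tested with limma 3.58.1 in R 4.3.3, two-sided, with group as the only term and a mean trend, over the 11685 genes that averaged 1 FPKM or more, with Benjamini-Hochberg adjustment and a threshold of 0.05. This scale understates changes of low genes. Folds are ratios of mean FPKM. For ANKRD9, an exact two-sided permutation test over samples gave p = 0.1, the smallest that 3 against 3 allows. The procedure was tested on simulated data. These gave every gene the same spread beyond counting error, so the simulation does not cover the wider spread of the mitochondrial genes. Short genes make tRNA values depend on how fragments were assigned, which is not given.

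The members and gene lists were chosen with earlier results of these data known. Named genes were the called nuclear members (up to 12 rises and 12 falls), the nuclear members of highest and lowest level, both rRNAs, up to 12 tRNAs by reads with a mean of at least 50, and 3 per list by adjusted p. A gene that this rule takes is not reported here. Genes of lists or rules without a match in the table were not analysed here. Chromosome names and neighbours came from RefSeq's GRCg7b table, to which 72 of the 74 nuclear members matched by identifier and all 24 mitochondrial ones by locus name and length. It was used for names, order and overlap of neighbours, and none of its coordinates are given.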

Additional observations from a re-analysis of the deposited data

How the results depend on the processing

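No called result changed direction. The tRNA for glutamine, which was not called, ran from -0.88 to 0.40 in log2 fold change over the settings. Against 12 mitochondrial rises, 5 were called with no filter on low values, 12 to 17 under the other scalings and models, and 5 to 14 when single libraries were left out; 0 falls were called under every setting. Nuclear rises (2) became 1 with no filter, 4 with library weights and 0 to 3 leaving out single libraries. Nuclear falls (8) became 3 with no filter, 17 with library weights and 4 to 21 leaving out single libraries. Other scalings shifted the nuclear split of rises and falls from 2 and 8 to 3 and 7 (median-of-ratios and quantile) or 3 and 6 (total without mitochondrial genes, or total of recovered reads, the latter added after seeing the data). Voom on recovered reads, also added then, gave 3 and 7, and 17 mitochondrial rises. Under quantile scaling the serine tRNA beside COX1 is the top rank of every library, so its change is 0 by construction. No pairing by replicate number was seen in correlations of same-numbered deviations (-0.20, 0.03 and -0.08), which 3 libraries per group cannot settle. With a replicate block, 2 nuclear rises, 7 nuclear falls and 13 mitochondrial rises were called. The share of all genes tested that was called also moved with the settings. Against 36.0%, it was 17.0% with no filter, 26.6% with a replicate block, 42.4% with library weights and 40.6% with voom. When single libraries were left out it was 24.3% to 33.5%. Of nuclear and mitochondrial members, 5.41% and 20.8% were called with no filter, and 28.4% and 62.5% with library weights. The median log2 fold change stayed between -0.08 and 0.00 for nuclear and between 0.46 and 0.66 for mitochondrial members. Depth limits the tRNAs for valine and glutamine, with at most 7 reads.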
